A study of Mus musculus with 12 samples.

Results

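Ribosome biogenesis is the production line that begins with transcription of ribosomal DNA by RNA polymerase I (Pol I) in the nucleolus. Small nucleolar ribonucleoproteins (snoRNPs) then modify and help cleave the precursor rRNA, and assembly factors fold it with ribosomal proteins into the small and large subunits, which are exported to the cytoplasm. Resting T cells keep this line low and are known to raise it when they enlarge and divide after antigen receptor signalling. The 36 genes described here encode factors of that line. They were taken as a list of mouse symbols, chosen with earlier results of these data known. The symbols were matched by gene ID among 56691 IDs in a table of raw RNA-seq counts. All 36 were found, and all 36 passed a filter on low counts that left 15935 genes to be tested. By role they comprised 5 genes of Pol I transcription, 3 of box C/D snoRNPs, 4 of box H/ACA snoRNPs, 4 of nucleolar structure and chaperoning, 5 of the small subunit processome and 4 of late small subunit maturation. The others were 3 of the PeBoW complex, 7 of large subunit assembly and the helicase gene Ddx21.

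The libraries came from naive CD8+ T cells of mouse spleen, in 4 groups of 3 libraries. The first 2 groups were Senp1 CKO cells (CKO is the usual short form of conditional knockout), taken 48 h after the start of stimulation or without stimulation (0 h). The other 2 were Senp1 WT cells at 48 h and at 0 h. Stimulation was by anti-CD3 at 5 µg/ml, which engages the T-cell receptor complex, together with the costimulatory anti-CD28 at 1 µg/ml. The SENP1 protein is a protease that takes SUMO, a small protein modifier, off its targets. The sources used here do not give the Cre line, the cell type in which it acts, the age or sex of the mice, or whether separate animals stand behind the 3 replicates of a group. The p-values therefore cover the spread of these libraries, which may be technical. Library totals ran from 15900529 to 22427151 counts. Levels are in CPM (counts over a TMM-scaled library total, brought to one common size) and changes as log2 with their standard error (SE). A gene was called when its edgeR quasi-likelihood p, adjusted by the Benjamini-Hochberg method over all genes tested, was under 0.05.

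Senp1 itself was at 70.0, 74.5 and 66.3 CPM in the CKO libraries at 48 h, against 150.3, 171 and 164 CPM in the WT libraries at 48 h. At 0 h it was at 56.5, 59.8 and 54.6 CPM in CKO libraries and at 83.9, 85.4 and 77.9 CPM in WT libraries. The CKO libraries were thus below the WT libraries at both times, matching the labels, and much Senp1 RNA was still counted in CKO cells. The change of CKO over WT was -1.20 ± 0.069 at 48 h (edgeR adjusted p = 5.43e-10) and -0.53 ± 0.070 at 0 h (adjusted p = 6.26e-05).

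The T-cell label was checked with 6 defining genes of CD8 T cells, including Cd3e and Cd8a. Their summed level was between 1293 and 1355 CPM in CKO at 48 h, between 3061 and 3256 CPM in CKO at 0 h, between 1536 and 1587 CPM in WT at 48 h and between 3158 and 3357 CPM in WT at 0 h, and none was at 0. The 10 B-cell markers together lay between 334 and 351 CPM in CKO at 48 h, between 999 and 1141 CPM in CKO at 0 h, between 346 and 432 CPM in WT at 48 h and between 1271 and 2327 CPM in WT at 0 h. Both lists were thus lower at 48 h, the B-cell list was lower in CKO than in WT at 0 h without overlap, and the part of such cell mixtures in the results below was not tested. Of 6 NK-cell markers, 5 fell at 48 h over 0 h in both genotypes, with log2 changes between -5.14 (Klra8) and -3.43 (Klre1) in CKO and between -4.57 (Ncr1) and -3.58 (Klrb1c) in WT. Eomes, which activated CD8 T cells also express, rose by 1.27 in CKO and 1.87 in WT. The NK-cell sum was 138 to 194 CPM in CKO at 48 h and 227 to 264 CPM in WT at 48 h, but between genotypes at 48 h no single marker passed the test, 3 estimates were above 0 (Klre1 0.88, Ncr1 0.79, Klrb1c 0.38) and 3 below (Eomes -0.53, Klra8 -0.19, Klra4 -0.11). At 0 h all 6 estimates were above 0, and Klre1 (0.71) was higher in CKO. The 4 CD4 and regulatory T-cell markers summed to 56.7 to 76.7 CPM in CKO at 48 h and 76.9 to 96.8 CPM in WT at 48 h, and none passed the test between genotypes, with Cd4 at -0.43 and Foxp3 at 0.39. Myeloid markers summed to 27.0 to 40.1 CPM over the 6 libraries at 48 h, against 70.1 to 126 CPM over the 6 at 0 h. Erythroid and platelet markers summed to 0.136 to 0.572 CPM at 48 h, against 10.96 to 18.9 CPM in CKO and 20.7 to 36.7 CPM in WT at 0 h. Neutrophil markers summed to 0.052 to 0.165 CPM at 48 h, against 1.49 to 7.68 CPM at 0 h. At 48 h the markers at 0 in every library of a group included Hbb-bs, Hbb-bt and Ppbp among the erythroid and platelet genes and S100a9 and Elane among the neutrophil genes, in both genotypes. The part of these lists in the results was not tested either. In bulk RNA, fewer cells of a type and less RNA per cell cannot be told apart, and CPM is a share of each library, so RNA per cell was not measured. WT replicate 1 at 0 h had the highest B-cell sum, and the counts of members below were also run without WT replicate 1 of both times.

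Nearly all of the 36 genes were higher after stimulation, in both genotypes. The list was chosen with earlier results of these data known, so its counts describe these data and are not an independent test. All 36 genes rose in CKO cells at 48 h over 0 h, where 38.5% of all genes tested rose and 39.2% fell. In WT cells 35 of 36 rose and none fell, where 38.7% of all genes rose and 39.1% fell. The median change of the 36 genes was 1.29 in CKO cells and 1.26 in WT cells, while over all genes tested it was -0.04 in CKO cells and -0.03 in WT cells. A rise of at least 1 on the log2 scale, a doubling, was reached by 28 of 36 genes in CKO cells (22.3% of all genes) and by 26 of 36 in WT cells (22.5%). The 48 h and 0 h libraries did not overlap for 35 of 36 genes in CKO cells (40.1% of all genes were higher in this way) and for 35 of 36 in WT cells (39.6%). Ubtf was the exception in both genotypes. Without WT replicate 1 of both times the counts that rose were again 36 in CKO and 35 in WT.

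**Figure D1:**
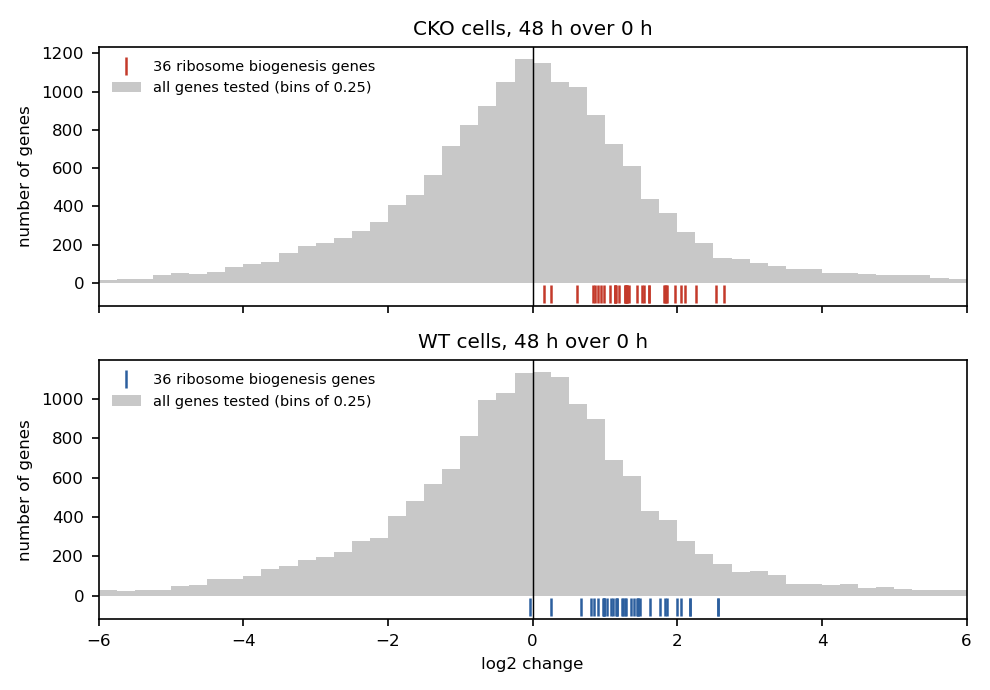
Number of genes by log2 change of 48 h over 0 h, in bins of 0.25, for all 15935 genes tested in CKO cells (top) and WT cells (bottom), with a tick for each of the 36 ribosome biogenesis genes. The ticks lie right of 0 except for Ubtf in WT cells (-0.03) and reach 2.64 in CKO cells and 2.57 in WT cells; changes beyond 6 in size are not shown.

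As a share of all counts, the 36 genes together held 1.48%, 1.45% and 1.54% of the CKO libraries at 48 h and 0.510%, 0.526% and 0.537% of the CKO libraries at 0 h. They held 1.49%, 1.54% and 1.56% of the WT libraries at 48 h and 0.551%, 0.544% and 0.535% of the WT libraries at 0 h. The 48 h shares were thus far above the 0 h shares in both genotypes, and the genotypes overlapped at 48 h and at 0 h. Ncl and Npm1 alone made up between 49.1% and 49.5% of these counts in CKO at 48 h, between 37.4% and 38.8% in CKO at 0 h, between 49.99% and 52.2% in WT at 48 h and between 37.7% and 38.8% in WT at 0 h. Without both, the other 34 genes still held 0.756% ± 0.0269 of counts in CKO at 48 h, against 0.325% ± 0.00685 in CKO at 0 h (SD, n = 3 each). In WT they held 0.751% ± 0.0358 at 48 h, against 0.335% ± 0.00535 at 0 h.

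The nucleolar structure genes included the members with the highest CPM, a measure not corrected for gene length and used here, role by role, only to choose examples. Ncl encodes nucleolin, an RNA-binding protein of the nucleolus that acts in rRNA transcription and processing. Ncl was at 4072, 3989.5 and 4316 CPM in CKO at 48 h and at 1029.8, 1028 and 1105 CPM in CKO at 0 h. In WT it was at 4176, 4269 and 4320.3 CPM at 48 h and at 1099.9, 1073 and 1039 CPM at 0 h. The stimulated libraries were far above the unstimulated ones, with a change of 1.97 ± 0.055 in CKO (edgeR adjusted p = 6.98e-17) and 1.99 ± 0.055 in WT (adjusted p = 5.72e-17). Npm1 encodes nucleophosmin, a chaperone that organises the outer zone of the nucleolus. Npm1 was at 3216, 3203 and 3349 CPM in CKO at 48 h and at 855, 915 and 954 CPM in CKO at 0 h. WT libraries were at 3789.6, 3505 and 3657 CPM at 48 h and at 1037, 968 and 1006 CPM at 0 h. Each time point stood clear of the other, with changes of 1.84 ± 0.058 in CKO and 1.86 ± 0.058 in WT, and the CKO libraries were below the WT libraries at both times. Npm1 has near-identical processed copies in the genome, and reads could have been split between them, so its level is uncertain. Nolc1, a phosphoprotein that escorts snoRNPs, rose by 2.05 ± 0.064 in CKO and 2.05 ± 0.063 in WT. Gnl3, the GTPase nucleostemin, rose least of these 4 genes, by 0.62 ± 0.067 in CKO and 0.67 ± 0.067 in WT.

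**Figure D2:**
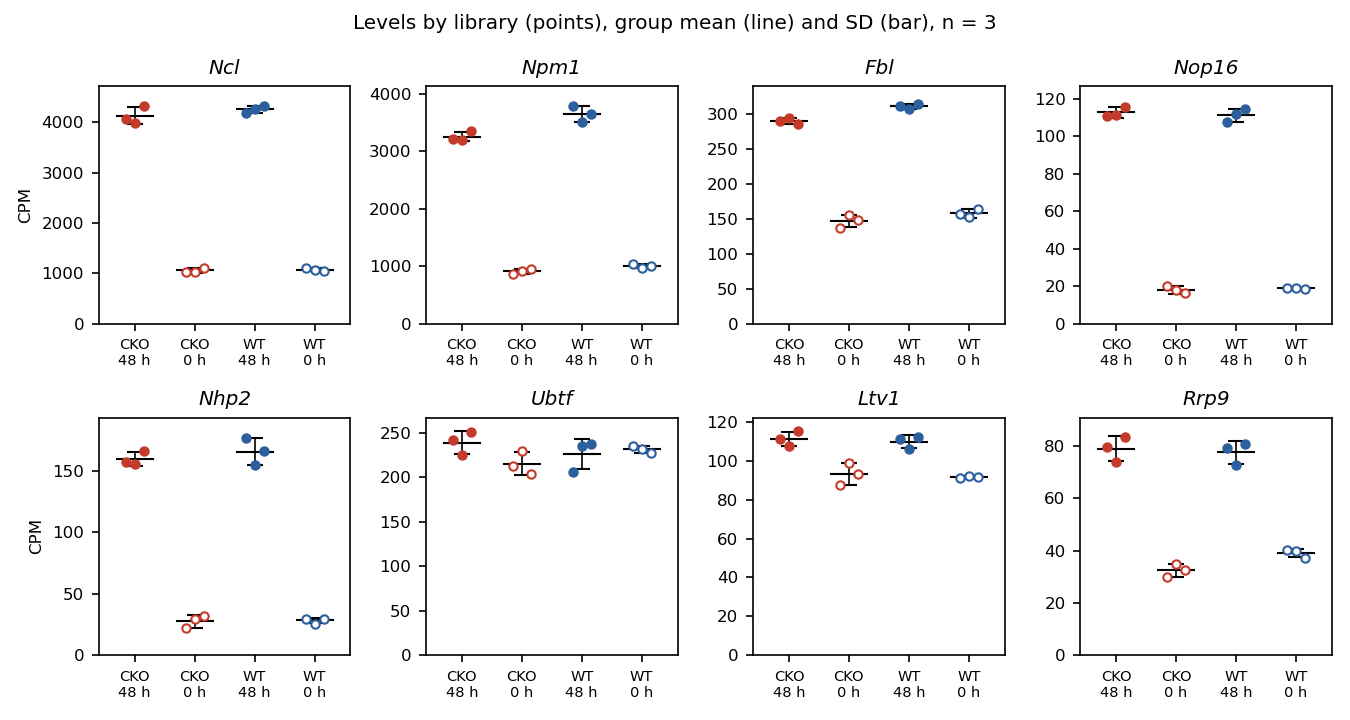
CPM of 8 ribosome biogenesis genes in each library (points; filled at 48 h, open at 0 h; red CKO, blue WT), with the mean (line) and SD (bar) of the 3 libraries of a group, on linear axes that start at 0. Ncl, Npm1, Fbl, Nop16, Nhp2 and Rrp9 separate 48 h from 0 h widely, Ltv1 narrowly, and Ubtf does not.

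The size of the rise differed from role to role. The box H/ACA snoRNP, which guides the change of uridine to pseudouridine in rRNA, had a median of 1.99 in CKO and 2.0 in WT over its 4 proteins. The 4 nucleolar structure genes had a median of 1.91 in CKO and 1.93 in WT. The 5 processome genes followed with 1.51 in CKO and 1.44 in WT. The 7 large subunit genes had 1.28 in CKO and 1.28 in WT, and the 3 box C/D genes had 1.31 in CKO and 1.16 in WT. Medians were 1.14 in CKO and 1.12 in WT for PeBoW, 1.15 in CKO and 1.17 in WT for the 5 Pol I transcription genes, and lowest for the 4 late small subunit genes, 1.08 in CKO and 1.02 in WT. Changes within a role could span as much as those medians: the 4 late small subunit genes ran from 0.25 to 1.61 in CKO. No test of roles against each other was made.

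**Figure D3:**
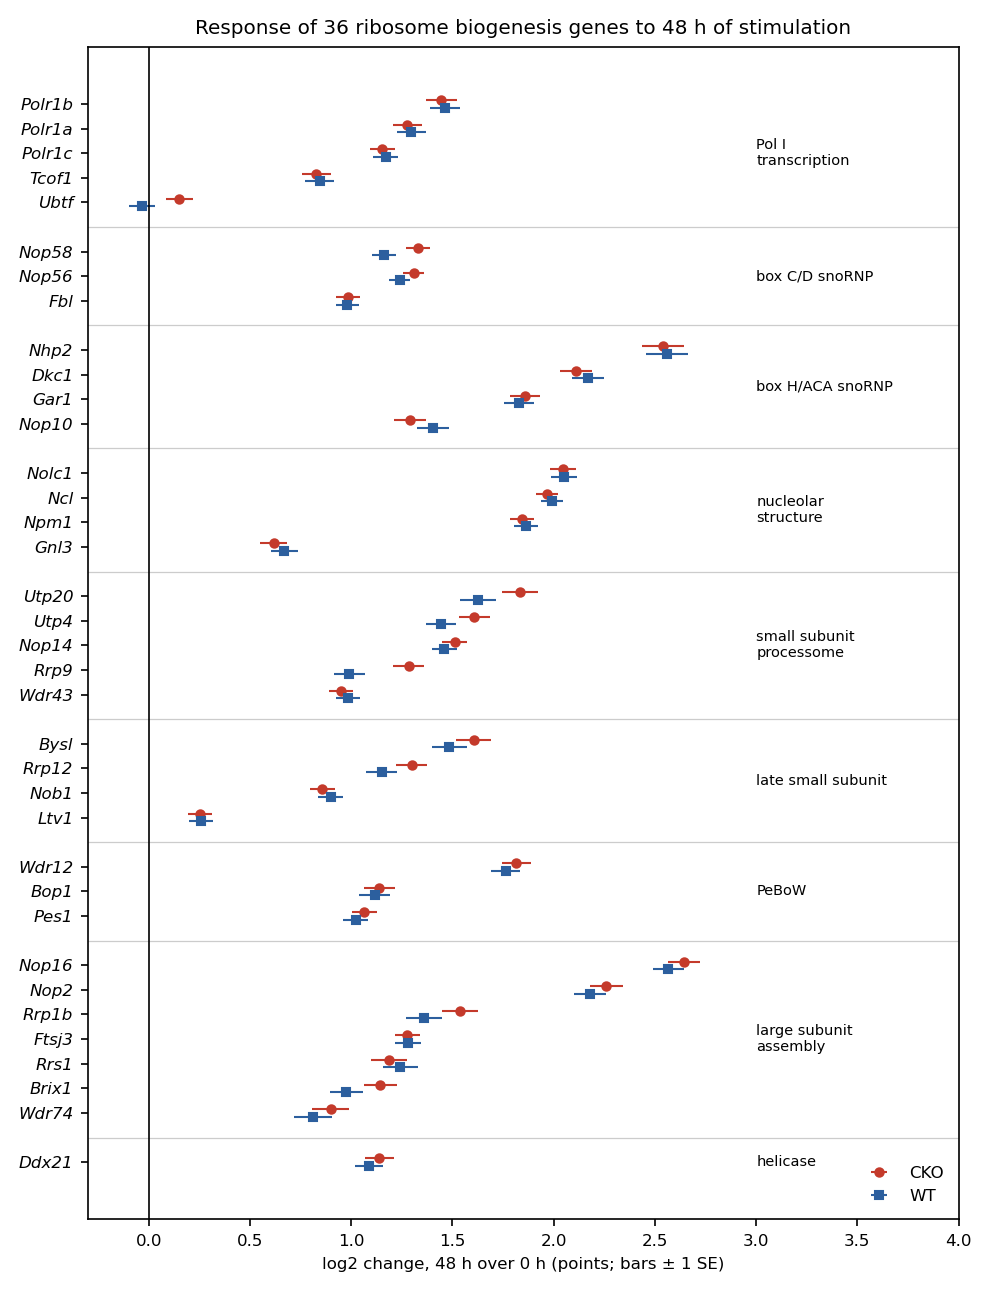
Log2 change of 48 h over 0 h (points) with its SE (bars) for each of the 36 genes in CKO (red circles) and WT (blue squares), grouped by role. Most genes lie between 0.8 and 2.6 in both genotypes, while Ubtf, Ltv1 and Gnl3 lie lowest, and CKO and WT points of a gene lie close together.

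Among the Pol I genes, Polr1a and Polr1b, the subunits that form the active centre, rose by 1.28 ± 0.072 and 1.45 ± 0.076 in CKO cells and by 1.30 ± 0.072 and 1.46 ± 0.075 in WT cells. Polr1c, a subunit that Pol I shares with Pol III, rose by 1.15 ± 0.063 in CKO and 1.17 ± 0.062 in WT. Tcof1 encodes treacle, a scaffold at active ribosomal DNA, and had the highest CPM of the 5. Tcof1 was at 333, 309 and 329 CPM in CKO at 48 h and at 177, 196 and 175 CPM in CKO at 0 h. The WT values were 326, 369 and 354 CPM at 48 h and 202, 208 and 175 CPM at 0 h. The times did not overlap, and the changes were 0.83 ± 0.072 in CKO and 0.84 ± 0.071 in WT.

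Ubtf, the HMG-box protein that keeps ribosomal DNA open for Pol I, moved least of all 36 genes. It was at 242, 225 and 250.1 CPM in CKO at 48 h and at 212, 229.6 and 204 CPM in CKO at 0 h. In WT libraries it stood at 206, 235 and 237 CPM at 48 h and at 235, 231 and 227 CPM at 0 h. The libraries of the 2 times overlapped in both genotypes. The change was 0.15 ± 0.066 in CKO, just past the threshold (edgeR adjusted p = 0.0452), and -0.03 ± 0.066 in WT (adjusted p = 0.656). The CKO call ended under 10 of 22 other settings (edgeR and DESeq2 adjusted p between 0.0135 and 0.765 over all 22), among them leaving out replicate 1 or replicate 3 of CKO at either time. The WT value was 0.050 without WT replicate 1 at 48 h, the lowest library of its group. The difference between the responses did not pass the test (0.18 ± 0.094, adjusted p = 0.434).

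Of the box C/D snoRNP, which guides methylation of the ribose in rRNA, Fbl encodes the methyltransferase fibrillarin. Fbl was at 289, 295 and 285 CPM in CKO at 48 h and at 137, 155 and 148 CPM in CKO at 0 h. WT cells had 311, 307 and 314 CPM at 48 h and 157, 152 and 164 CPM at 0 h. Its level close to doubled in both genotypes, by 0.98 ± 0.058 in CKO and 0.98 ± 0.058 in WT, with no overlap between times. Nop56 and Nop58 form the core on which fibrillarin sits. Nop56 was at 544, 529 and 552 CPM in CKO at 48 h and at 216, 218 and 221 CPM in CKO at 0 h. In WT it was at 555, 553 and 573 CPM at 48 h and at 233, 242 and 236 CPM at 0 h. It rose by 1.31 ± 0.052 in CKO and 1.24 ± 0.052 in WT, and Nop58 by 1.33 ± 0.058 in CKO and 1.16 ± 0.058 in WT. Per kb of coding sequence, the scale on which levels of different genes are compared here, the 3 genes were at 295 ± 4.68 (Fbl), 311 ± 6.61 (Nop56) and 296 ± 17.5 (Nop58) CPM per kb in CKO at 48 h (SD, n = 3). In CKO at 0 h they were at 149 ± 9.19, 126 ± 1.41 and 118 ± 4.16 CPM per kb. On this scale, in CKO, Fbl was thus above its partners at 0 h and level with Nop58 at 48 h within the spread. The SD covers the libraries only and not the error of dividing by coding length. Annotated exons span 4099 bases in Nop56 and 10758 bases in Nop58, against coding lengths of 1740 and 1608 bases. In WT at 48 h they were at 317 ± 3.86 (Fbl), 322 ± 6.30 (Nop56) and 293 ± 8.07 (Nop58) CPM per kb, so Fbl stayed above Nop58 there.

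In the box H/ACA snoRNP, Dkc1 encodes dyskerin, the pseudouridine synthase, and Gar1, Nhp2 and Nop10 its core partners. Dkc1 was at 336, 323 and 356 CPM in CKO at 48 h and at 71.1, 83.3 and 80.3 CPM in CKO at 0 h. WT libraries were at 297, 352 and 339.5 CPM at 48 h and at 78.2, 72.7 and 68.6 CPM at 0 h. It rose by 2.11 ± 0.078 in CKO and 2.17 ± 0.078 in WT, with every stimulated library well above every unstimulated one. Nhp2 rose still more, by 2.54 ± 0.104 in CKO and 2.56 ± 0.104 in WT, which is 5.81-fold in CKO and 5.90-fold in WT. Gar1 rose by 1.86 ± 0.075 in CKO and 1.83 ± 0.075 in WT. Nop10, the smallest protein of the 4, rose least. Nop10 was at 96.5, 107 and 105 CPM in CKO at 48 h and at 40.0, 46.4 and 40.0 CPM in CKO at 0 h. WT libraries were at 112, 98.0 and 109 CPM at 48 h and at 40.7, 37.7 and 42.6 CPM at 0 h. The times stood apart, and the changes were 1.29 ± 0.079 in CKO and 1.40 ± 0.079 in WT. Per kb of coding sequence the order in CKO at 48 h was Nop10 (536 ± 29.1), Nhp2 (348 ± 12.2), Dkc1 (221 ± 11.2) and Gar1 (167 ± 6.83 CPM per kb). In CKO at 0 h Nop10 was at 219 ± 19.3 CPM per kb, while Nhp2 (59.9 ± 11.2), Dkc1 (51.2 ± 4.16) and Gar1 (46.1 ± 2.36) lay close to each other. Levels per kb divide by coding length alone, while reads over untranslated regions may also have been counted. This limits every comparison per kb given here, and can weigh heavily on short genes such as Nop10.

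The small subunit processome is the large particle that cleaves and folds the precursor of the small subunit rRNA. Wdr43, a component of its first-binding subcomplex, had the highest CPM of the 5. Wdr43 was at 398, 374 and 415 CPM in CKO at 48 h and at 200.1, 215 and 199.6 CPM in CKO at 0 h. The WT values were 392, 405 and 411 CPM at 48 h and 204, 211 and 196 CPM at 0 h. The times did not overlap, and Wdr43 rose by 0.95 ± 0.059 in CKO and 0.98 ± 0.059 in WT, the smallest rise of the 5. Utp20, a very large scaffold protein, rose by 1.83 ± 0.090 in CKO and 1.63 ± 0.089 in WT. WT replicate 1 at 48 h, with 221 CPM, was the lowest of the 6 libraries at 48 h for Utp20, where the other two WT libraries had 281 and 275 CPM. Utp4, a partner of Wdr43, rose by 1.61 ± 0.076 in CKO and 1.44 ± 0.075 in WT, and Nop14 by 1.51 ± 0.063 in CKO and 1.46 ± 0.062 in WT. Rrp9, which binds the U3 snoRNA, rose by 1.28 ± 0.078 in CKO and 0.99 ± 0.076 in WT.

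Late small subunit maturation held both strong and weak responders. Bysl (bystin) rose by 1.61 ± 0.088 in CKO and 1.49 ± 0.086 in WT, and Rrp12, a factor needed for export of the pre-ribosome, by 1.30 ± 0.077 in CKO and 1.15 ± 0.076 in WT. Nob1, the endonuclease that makes the final cut of small subunit rRNA, rose by 0.86 ± 0.061 in CKO and 0.90 ± 0.061 in WT. Ltv1, an assembly factor released from the pre-ribosome before Nob1 cuts, changed least of the 4. Ltv1 was at 111, 108 and 115 CPM in CKO at 48 h and at 87.7, 99.1 and 93.2 CPM in CKO at 0 h. In WT libraries it stood at 111, 106 and 112 CPM at 48 h and at 91.3, 92.3 and 91.7 CPM at 0 h. The groups stood apart by a narrow margin, and the rise was 0.25 ± 0.060 in CKO (edgeR adjusted p = 0.000807) and 0.26 ± 0.060 in WT (adjusted p = 0.000654). Ltv1 was near Nob1 in level per kb at 48 h (79.0 ± 2.61 and 79.1 ± 2.12 CPM per kb in CKO), whereas at 0 h it was the higher one (66.2 ± 4.02 and 43.7 ± 1.65 CPM per kb in CKO).

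For the large subunit, Pes1, Bop1 and Wdr12 form the PeBoW complex, which processes large subunit rRNA. Pes1 was at 181, 188 and 189.6 CPM in CKO at 48 h and at 86.2, 92.1 and 88.8 CPM in CKO at 0 h. WT cells had 186, 179 and 199 CPM at 48 h and 98.8, 88.2 and 90.8 CPM at 0 h. Pes1 rose by 1.06 ± 0.063 in CKO and 1.02 ± 0.062 in WT without overlap, Bop1 by 1.14 ± 0.075 in CKO and 1.12 ± 0.075 in WT, and Wdr12 by 1.82 ± 0.071 in CKO and 1.76 ± 0.070 in WT. Wdr12 came close to Pes1 per kb at 48 h (99.9 ± 3.41 and 106 ± 2.53 CPM per kb in CKO) but was lower at 0 h (28.4 ± 2.84 and 50.5 ± 1.68 CPM per kb in CKO). Bop1 was at 53.3 ± 3.91 CPM per kb in CKO at 48 h.

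Among the 7 other large subunit factors was the gene with the highest estimated rise of the whole list, close to that of Nhp2 in both genotypes. Nop16, a factor of early large subunit precursors in yeast, was at 111, 111 and 116 CPM in CKO at 48 h and at 20.1, 17.9 and 16.1 CPM in CKO at 0 h. In WT it was at 107, 112 and 114 CPM at 48 h and at 18.7, 19.2 and 18.4 CPM at 0 h. The change was 2.64 ± 0.077 in CKO (edgeR adjusted p = 1.29e-16) and 2.57 ± 0.076 in WT (adjusted p = 1.57e-16), or 6.25-fold in CKO and 5.92-fold in WT. It exceeded 94.0% of all genes tested in CKO and 93.5% in WT. Nop2, a methyltransferase for cytosine in rRNA, rose by 2.26 ± 0.081 in CKO and 2.18 ± 0.080 in WT. Ftsj3, an rRNA methyltransferase with the highest CPM of the 7, was at 279, 281 and 296 CPM in CKO at 48 h and at 108, 121 and 124 CPM in CKO at 0 h. WT libraries were at 264, 288 and 292 CPM at 48 h and at 118, 116 and 113 CPM at 0 h. It rose by 1.28 ± 0.064 in CKO and 1.28 ± 0.064 in WT, with the times apart. Rrp1b rose by 1.54 ± 0.090 in CKO and 1.36 ± 0.089 in WT, Rrs1 by 1.19 ± 0.087 in CKO and 1.24 ± 0.087 in WT, and Brix1 by 1.14 ± 0.081 in CKO and 0.98 ± 0.080 in WT. Wdr74 rose least, by 0.90 ± 0.092 in CKO and 0.81 ± 0.091 in WT.

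Ddx21 encodes an RNA helicase that binds ribosomal DNA, snoRNAs and Pol II genes. It was at 819, 756 and 863 CPM in CKO at 48 h and at 357, 371 and 379.5 CPM in CKO at 0 h. The WT values were 723, 859 and 841 CPM at 48 h and 401, 383 and 356 CPM at 0 h. Its rise was 1.14 ± 0.071 in CKO and 1.09 ± 0.071 in WT, and the times did not overlap.

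Promoter windows were looked at because these genes rose together and MYC, a factor known to activate ribosome biogenesis genes in dividing cells, binds the E-box CACGTG. RefSeq windows on build GRCm38.p6, 250 bases before and 50 bases after the start site, were found for 30 of the 36 genes. The E-box, a palindrome and so the same on both strands, was in a window of 6 of these 30 genes (20%), against 11.6% of the tested genes that have a window and 7.15% of all windows. The 6 are printed with 12 bases on either side where the window allows, 5′ to 3′ on the gene's strand, with the E-box in capitals, to show how its setting differs.
Nop2 (chr6:125131811-125131840, + strand): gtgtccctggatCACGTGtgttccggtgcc
Pes1 (chr11:3963965-3963994, + strand): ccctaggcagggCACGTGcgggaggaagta
Utp4 (chr8:106893643-106893672, + strand): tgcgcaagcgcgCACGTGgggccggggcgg
Wdr43 (chr17:71616220-71616249, + strand): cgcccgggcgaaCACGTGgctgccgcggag
Ltv1 (chr10:13193092-13193121, - strand): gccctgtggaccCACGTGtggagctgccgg
Utp20 (chr10:88826765-88826789, - strand): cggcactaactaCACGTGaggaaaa
Counted from the start site, the E-box began at position -60 in Nop2, 3 in Pes1, 16 in Utp4, 18 in Wdr43, 29 in Ltv1 and 38 in Utp20, so that it lay before the start site in Nop2 alone.

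Genes with and without the E-box had similar medians. With it, the median change was 1.34 in CKO and 1.23 in WT over 6 genes. Without it, the median was 1.32 in CKO and 1.33 in WT over 24 genes. The 6 genes ran from 0.25 (Ltv1) to 2.26 (Nop2) in CKO, so the E-box was in the window of a weak and of a strong responder, and these letters were not in that of Nop16. The 250 bases before the start site of Nop2 and of Nop16 are given to show both cases, with the E-box in capitals.
Nop2 (chr6:125131633-125131882, + strand): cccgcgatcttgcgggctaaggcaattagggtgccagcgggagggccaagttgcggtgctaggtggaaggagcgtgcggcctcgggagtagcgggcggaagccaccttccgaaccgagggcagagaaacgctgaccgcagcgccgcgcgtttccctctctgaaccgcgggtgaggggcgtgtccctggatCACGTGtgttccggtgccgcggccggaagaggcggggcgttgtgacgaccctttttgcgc
Nop16 (chr13:54590075-54590324, - strand): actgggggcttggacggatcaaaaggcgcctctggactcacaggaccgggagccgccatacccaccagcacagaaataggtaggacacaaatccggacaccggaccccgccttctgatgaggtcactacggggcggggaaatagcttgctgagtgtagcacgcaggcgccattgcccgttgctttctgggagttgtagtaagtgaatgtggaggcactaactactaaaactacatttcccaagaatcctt
Of the other words searched on both strands, CCGGAAG, a core bound by ETS factors, was in 9 of 30 genes (30%, against 20.1% of tested genes and 8.86% of all windows). A palindrome of 10 bases that starts TCTCG, known from housekeeping promoters, was in 0 of 30 (1.10% of tested genes and 0.466% of all windows), and AAGATGGCG, a core bound by YY1, was in Ftsj3 alone (1 of 30, 3.33%, against 3.54% of tested genes and 1.40% of all windows). CCGGAAG and AAGATGGCG can overlap by letters, but no window of the 30 held both. These are matches of letters, not evidence of binding.

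The other genes of the pathway moved mostly in the same direction. Of 133 such genes, also listed with earlier results of these data known, 132 were tested. In CKO cells 114 rose, 7 fell and 11 did not pass the test, with a median of 0.89, where 38.5% of all genes tested rose and 39.2% fell. In WT cells 113 rose, 8 fell and 11 did not pass, with a median of 0.83, where 38.7% of all genes rose and 39.1% fell. The counts by role that follow stand beside the same shares. All 9 genes of other snoRNP proteins and snoRNP assembly rose in both genotypes, with Ruvbl2, an ATPase of the assembly machinery, highest (2.21 ± 0.094 in CKO and 2.42 ± 0.094 in WT) and Pih1d1 lowest (0.37 ± 0.094 in CKO and 0.42 ± 0.092 in WT). Of 41 other processome genes 40 rose in both genotypes. Noc4l, a partner of Nop14, led with 2.06 ± 0.083 in CKO and 2.06 ± 0.083 in WT, and the helicase gene Ddx47 did not pass the test (0.10 ± 0.058 in CKO, edgeR adjusted p = 0.127, and 0.07 ± 0.058 in WT, adjusted p = 0.247).

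Of 42 other large subunit genes, 35 rose and 2 fell in CKO, and 34 rose and 2 fell in WT. Rpf2, which works with Rrs1, rose by 1.89 ± 0.092 in CKO and 1.99 ± 0.092 in WT. Nop53 went the other way: it fell by 1.16 in CKO (SE 0.057) and by 1.22 in WT (SE 0.057), to 190.3 ± 4.14 CPM in CKO at 48 h, against 424 ± 8.96 CPM in CKO at 0 h (SD, n = 3). Of 9 late small subunit genes, 7 rose and 2 fell in both genotypes, with Cinp at 2.11 ± 0.073 in CKO and 2.40 ± 0.073 in WT. The kinase gene Riok1 was the lowest of them, at -0.50 ± 0.076 in CKO and -0.64 ± 0.075 in WT. Of 11 other Pol I genes, 6 rose in each genotype, 2 fell in CKO and 3 fell in WT. The polymerase subunit gene Polr1g rose by 1.74 ± 0.109 in CKO and 1.90 ± 0.107 in WT, while Taf1c, of the promoter selectivity factor, was at -0.48 ± 0.108 in CKO and -0.63 ± 0.108 in WT.

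Of 9 tested RNA exosome genes, 8 rose in CKO and 9 in WT, with Exosc9 at 1.32 ± 0.097 in CKO and 1.41 ± 0.097 in WT. Exosc5 was the smallest, at 0.18 ± 0.10 in CKO (edgeR adjusted p = 0.102) and 0.28 ± 0.099 in WT (adjusted p = 0.0141). The WT call of Exosc5 ended without WT replicate 2 at 0 h (edgeR adjusted p = 0.0837), without WT replicate 1 of both times (adjusted p = 0.0728) and with a stricter count filter (adjusted p = 0.149), and its adjusted p was between 0.00233 and 0.149 over the alternatives. Of 6 genes for release of the large subunit in the cytoplasm, 5 rose in CKO and 4 in WT, and Zfp622 fell in both (-0.59 ± 0.065 in CKO and -0.51 ± 0.065 in WT). The rixosome trims large subunit precursors and carries Senp3, a SUMO protease related to Senp1. Of its 5 genes 4 rose in both genotypes, with Pelp1 at 1.49 ± 0.083 in CKO and 1.67 ± 0.083 in WT and the endonuclease gene Las1l not passing the test (-0.03 ± 0.065 in CKO and -0.02 ± 0.065 in WT). Senp3 rose by 0.46 ± 0.058 in CKO and 0.44 ± 0.058 in WT, and its level did not pass the test between genotypes (at 48 h -0.09 ± 0.057, edgeR adjusted p = 0.492, and at 0 h -0.10 ± 0.058, adjusted p = 0.339).

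The responses of CKO and WT cells lay close in rank and size. They share no libraries, and over the 36 genes Pearson's r across genes was 0.987 and Spearman's rho 0.965, given as a description because genes are not independent replicates. For 34 of 36 genes the responses differed by less than 0.2, and the extremes were Rrp9 (0.29 ± 0.108, CKO minus WT) and Nop10 (-0.11 ± 0.110). Over all genes tested the quartiles of this difference were -0.22 and 0.17. The median SE was 0.21 over all genes and 0.10 over the members, so the members were also measured more precisely. No member passed the test of the difference in response in edgeR (smallest adjusted p = 0.224) or in DESeq2. Over all genes, edgeR called 0.609% with a larger and 0.772% with a smaller value in CKO. Of the 36 members 1 had an unadjusted edgeR p under 0.05, against 2045 of 15935 over all genes tested. The 95% intervals of the members' differences in response ran from -0.34 (Nop10) to 0.52 (Rrp9).

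Between genotypes at 48 h no member was called in either direction by edgeR (smallest adjusted p = 0.110, for Npm1) or by DESeq2. Of the 36 members 2 had an unadjusted edgeR p under 0.05, against 2669 of 15935 over all genes tested. Over all genes, edgeR found 2.35% above and 2.19% below WT in CKO. At this time all 6 CD8 T-cell markers had estimates below 0, and 2 of them, Cd8a (-0.36) and Cd8b1 (-0.26), passed the test. Their summed level was 1293 to 1355 CPM in CKO and 1536 to 1587 CPM in WT, without overlap. The part of this in the estimates was not tested. The intervals bound the sizes: over the 36 genes the 95% intervals of CKO over WT lay between -0.30 (Gnl3) and 0.32 (Rrp1b), which is 0.813-fold to 1.25-fold. Rrp1b had the highest estimate. It was at 140.1, 133 and 146 CPM in CKO and at 111, 133 and 135 CPM in WT, which overlap, and the difference was 0.14 ± 0.085 (adjusted p = 0.434). Npm1 had the lowest, -0.17 ± 0.056, and its 3 CKO libraries were below the 3 WT libraries. For Fbl, Gnl3 and Nop56 too, the highest CKO library was below the lowest WT library, which makes 4 of 36 genes (12.2% of all genes). Nob1 was separated in the other direction (1 of 36, against 11.5% of all genes). Neither count is above its background.

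**Figure D4:**
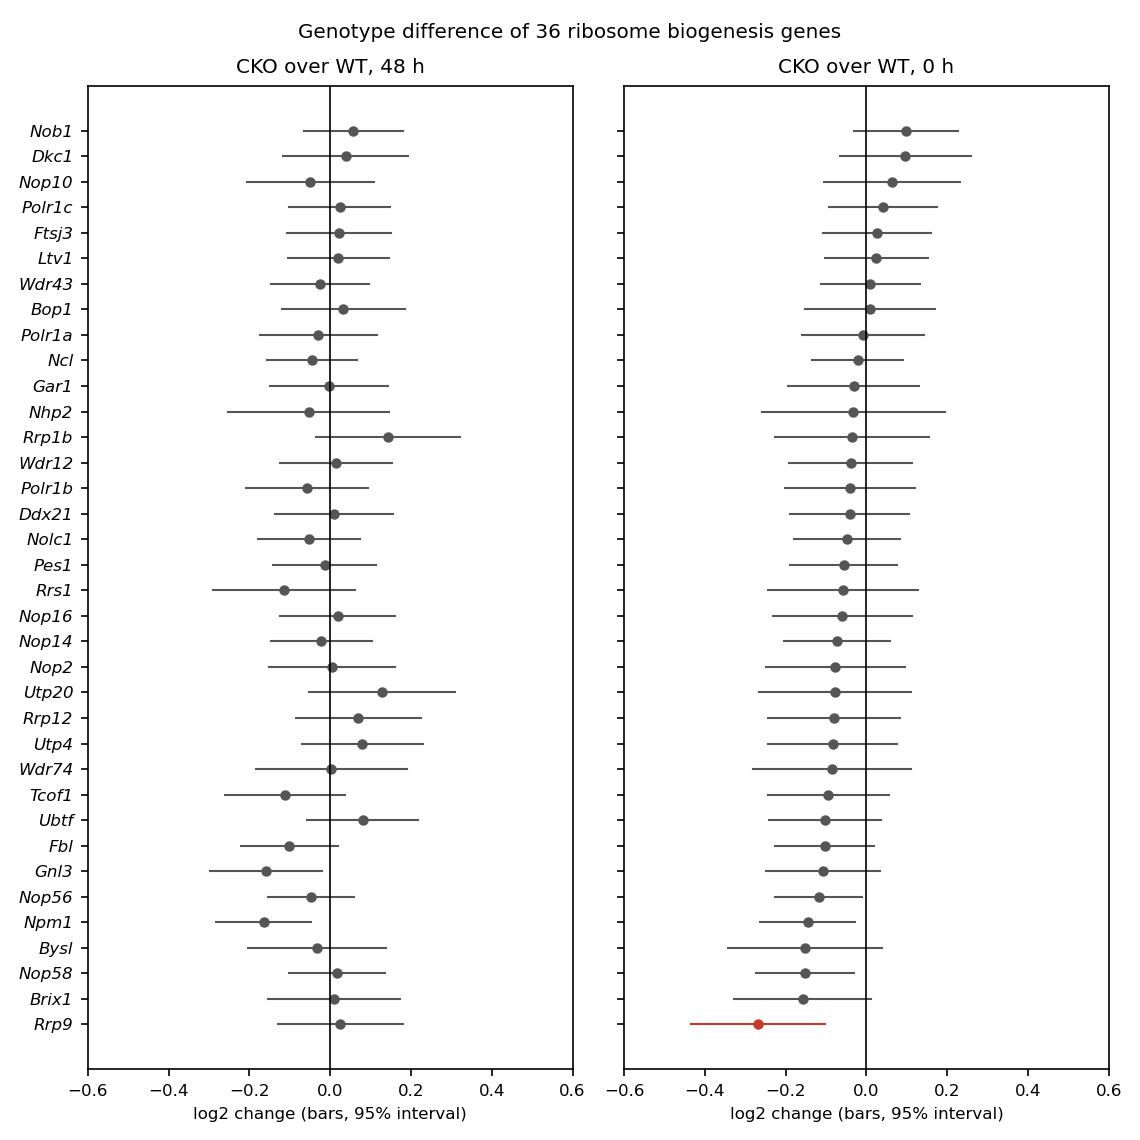
Log2 change of CKO over WT (points) with its 95% interval (bars) for the 36 genes at 48 h (left) and 0 h (right), in the order of the 0 h estimate; red marks an adjusted p under 0.05. At 48 h the intervals stay between -0.30 and 0.32, and at 0 h Rrp9 (-0.27) is the red point.

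In unstimulated cells 1 of 36 genes was lower in CKO and none was higher, against a background of 3.38% lower and 4.1% higher. None was lower by 1 or more on the log2 scale, where 0.766% of all genes were. The median over the 36 genes was -0.06, and 28 of 36 estimates were below 0, against 8132 of 15935 over all genes tested. Genes of a library can shift together, so these signs are not independent. At 0 h CKO replicate 1 was the lowest of its group for 18 of 36 genes, and WT replicate 3 for 16. In the same cells 10 of 10 B-cell markers had estimates below 0, 1 of them past the test, and the part of this in the estimates was not tested. The highest estimate was that of Nob1, at 50.5, 53.5 and 54.3 CPM in CKO and at 49.9, 48.2 and 49.8 CPM in WT. Its 3 CKO libraries were above the 3 WT libraries, by 0.10 ± 0.062 (adjusted p = 0.394 in edgeR). For Nop56, Nop58, Npm1 and Rrp9 the highest CKO library was below the lowest WT library (4 of 36, against 12.6% of all genes), and Nob1 alone was separated upwards (1 of 36, against 12%). At an unadjusted edgeR p under 0.05 stood 4 of the 36 genes, against 3368 of 15935 over all genes tested.

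Rrp9 was the gene called. It was at 29.8, 34.8 and 32.7 CPM in CKO at 0 h, against 40.1, 39.9 and 37.2 CPM in WT at 0 h. The groups did not overlap, and the difference was -0.27 ± 0.079 (edgeR adjusted p = 0.0437), or 0.830-fold. At 48 h it was at 79.6, 73.9 and 83.6 CPM in CKO and at 79.2, 72.8 and 81.0 CPM in WT, which overlap (0.03 ± 0.074). DESeq2 called it too (adjusted p = 0.0338), but the call is a marginal one. It ended in an edgeR fit of the 0 h groups alone (adjusted p = 0.0838) and when WT replicate 1 was dropped from both times (adjusted p = 0.0854). Leaving out single libraries ended it for 10 of 12, all but WT replicate 1 at 48 h and CKO replicate 2 at 0 h (adjusted p between 0.0262 and 0.189).

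Rrp9 lies on chromosome 9 beside genes with far larger genotype differences, a feature looked for after its value was seen. Of its 24 nearest tested genes, 12 on each side in the reference annotation, 7 were lower in CKO at 0 h. The largest differences of these 7 at 0 h were Abhd14b (-4.69 ± 0.406), the ribosomal protein gene Rpl29 (-4.02 ± 0.223), Dusp7 (-1.71 ± 0.131) and Abhd14a (-1.64 ± 0.198). Abhd14b was low at 0 h, with means of 0.12 CPM in CKO and 3.31 CPM in WT. Parp3, the immediate neighbour, was at -0.997 ± 0.095, and its exons share 20 bases with those of Rrp9 on the opposite strand, 0.68% of the exon length of Rrp9. At 48 h Rpl29 (-3.96, edgeR adjusted p = 8.52e-06), Dusp7 (-1.66, adjusted p = 5.43e-08) and Parp3 (-0.89, adjusted p = 9.18e-06) were again lower in CKO. So were Abhd14b (-1.35, adjusted p = 0.0105), Abhd14a (-1.03, adjusted p = 0.000421) and Mapkapk3 (-0.48, adjusted p = 0.000603). Rbm15b, also lower at 0 h, did not pass the test at 48 h (-0.15, adjusted p = 0.242). Neighbours not called at 0 h went both ways at 48 h. Hemk1 (0.67, edgeR adjusted p = 0.00511) and Acy1 (0.48, adjusted p = 0.0427) were higher in CKO. Gm17040 was lower (-2.35, adjusted p = 0.0494), with means of only 0.18 CPM in CKO and 0.94 CPM in WT. The estimate of Rrp9 at 48 h was 0.03. At 0 h, around the other 35 members, the number of called neighbours among 24 had a median of 1 and a maximum of 4. What the neighbours have to do with the value of Rrp9 was not tested.

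**Figure D5:**
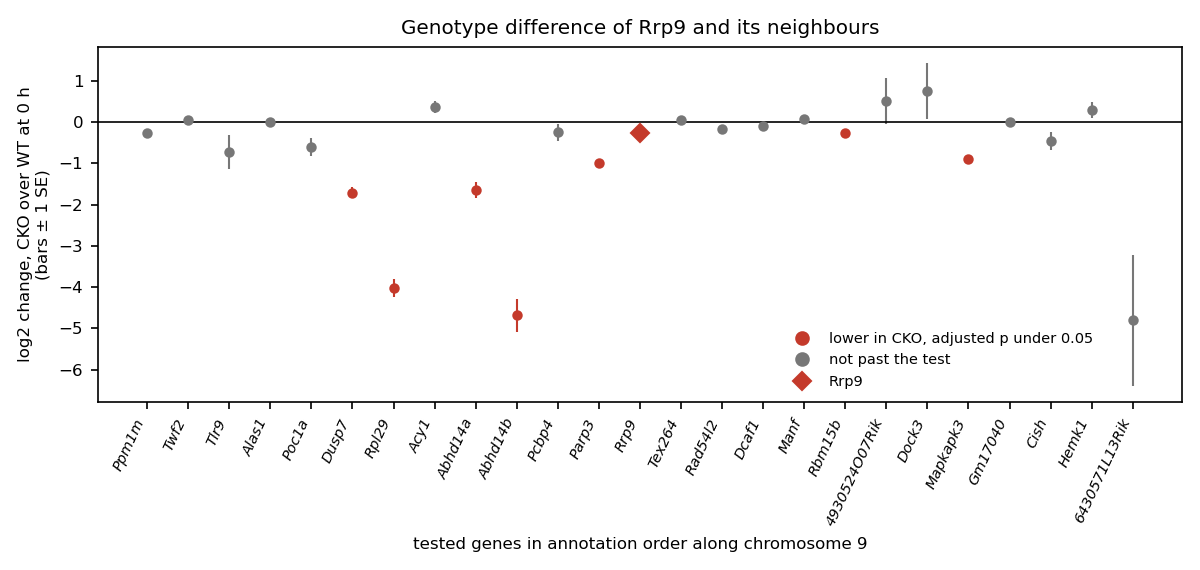
Log2 change of CKO over WT at 0 h (points) with its SE (bars) for Rrp9 (diamond) and the 12 nearest tested genes on each side in annotation order on chromosome 9; red marks genes lower in CKO at an adjusted p under 0.05. The 7 red neighbours include Rpl29 (-4.02) and Abhd14b (-4.69), while Rrp9 is at -0.27.

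At 48 h none of the 132 other pathway genes tested was called by edgeR, where 2.35% of all genes were higher in CKO and 2.19% lower. At 48 h 6 of the 132 had an unadjusted edgeR p under 0.05, against 2669 of 15935 over all genes tested. At 0 h 3 of 132 were lower in CKO and none was higher, where 3.38% of all genes were lower and 4.1% higher. At this time 22 of the 132 had an unadjusted edgeR p under 0.05, against 3368 of 15935 over all genes tested. Of the 132 estimates 95 were below 0, with a median of -0.05, against 8132 of 15935 below 0 over all genes tested. These signs are not independent either. Sbds, which helps release a factor that blocks the large subunit, was at 45.4, 48.6 and 43.5 CPM in CKO at 0 h, against 58.2, 59.3 and 58.6 CPM in WT at 0 h, a difference of -0.36 ± 0.066 (edgeR adjusted p = 0.00167). At 48 h Sbds was at 118, 118 and 114 CPM in CKO and at 121, 109 and 109 CPM in WT, so the genotypes differed before stimulation and overlapped after it. Rpf1 differed by -0.30 ± 0.062 (adjusted p = 0.00444) and Nop53 by -0.19 ± 0.056 (adjusted p = 0.0429) at 0 h. The call of Nop53 ended when any 1 of 11 libraries was left out, all but WT replicate 1 at 48 h (edgeR adjusted p between 0.0190 and 0.150 over the 12 runs).

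Counting limits apply to some genes by name. Exons of 15 of the 36 genes share bases with another annotated gene, 13 of them with one on the opposite strand and 4 with one on the same strand, mostly snoRNAs hosted in Nop56, Nop58, Ncl and Gnl3. The largest overlap was that of Bysl with Ccnd3 on the opposite strand, 9.37% of the exon length of Bysl. How strand was handled in counting is not stated in the sources used here, and reads of such partners cannot be told apart.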

How the data were processed

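The labels' protocols name TRIzol for RNA extraction and the TruSeq Stranded mRNA kit for library preparation. The table deposited by the authors holds raw counts, whole numbers for each Ensembl gene ID and library. The submitters' processing notes list cutadapt, HISAT2 2.2.1, DESeq2 and build GRCm39 without role or order; which program and annotation made the counts is not stated in the sources used here.

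Symbols from a reference table were found for 52073 of 56691 IDs, and IDs without one held 0.249% of counts. After TMM scaling and filterByExpr, edgeR 4.0.16 (robust quasi-likelihood, R 4.3.3) was run with 1 mean per group and 12 libraries in 1 fit (8 residual degrees of freedom). The 5 contrasts compared 48 h with 0 h in each genotype, the genotypes at each time, and the responses with each other. Tests were two-sided with Benjamini-Hochberg adjustment over 15935 genes. The fit was also run on counts simulated from its own model with few genes changed, which does not check it for these data. In the real counts the biological coefficient of variation was 0.0999, and replicates differed by more than sampling noise (chi-square per gene 3.96 to 20.9). The highest values, 20.9 and 16.6, were those of WT replicate 1 at 48 h with replicates 2 and 3 of its group. Those replicates were at 4.75 with each other. Alternatives were other scalings and count filters, DESeq2 1.42.0, fits of 2 groups, replicate blocks, thinning, a log2 threshold and leaving out libraries.

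The members, pathway lists, markers and naming rule were chosen with earlier results of these data known. Each library's value is given for Ncl, Npm1 and Fbl, the member with the largest and the smallest change in a contrast, members called between genotypes and the member of each role with the highest CPM. Pathway genes are named where they had the largest or smallest change of their list in CKO or were called between genotypes, and Senp3 always. The library values of Utp20 and Sbds and the neighbours of Rrp9 were picked after values were seen. Coding lengths, exon overlaps and neighbours came from a GRCm38 annotation by gene ID, and promoter windows from RefSeq. Tables and figures used Python 3.11.15, pandas 2.3.3, NumPy 2.4.6 and matplotlib 3.10.9.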

Additional observations from a re-analysis of the deposited data

Results flagged for a closer look

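Sbds, which acts in release of the large ribosomal subunit, had a larger response to stimulation in CKO than in WT cells. The change of 48 h over 0 h was 1.34 ± 0.065 in CKO and 0.94 ± 0.064 in WT, and the difference, tested in edgeR as an interaction, was 0.40 ± 0.090 (adjusted p = 0.0287). The call ended when any 1 of 9 libraries was left out, all but replicate 1 of WT at both times and CKO replicate 2 at 0 h (adjusted p between 0.00681 and 0.0878 over the 12 runs). Senp1, the deleted gene, had a smaller response in CKO than in WT cells (0.30 ± 0.070 in CKO and 0.97 ± 0.068 in WT, difference -0.67 ± 0.098, edgeR adjusted p = 0.000926). No test for outlying samples was made in the groups of 3 libraries.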

How the results depend on the processing

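Of 2712 values of single genes recomputed under other settings, 2640 kept their direction and side of the threshold, 17 changed sign, 51 lost their call and 4 gained one. The members that rose numbered 35 or 36 in CKO and in WT under each setting run other than a log2 change of at least 1. With a filter of 5 CPM in 3 libraries, which lowers the median change of the shared genes by 0.13 in CKO and WT at 48 h over 0 h, 1 member fell in WT (Ubtf, -0.16). Between genotypes at 48 h, 1 member was lower with no count filter (Npm1) in place of 0. At 0 h the 1 lower member (Rrp9) became 0 with library totals, in the fit of the groups compared, with the replicate block (adjusted p = 0.0505), without WT replicate 1 of both times and at a log2 change of at least 1, and ranged from 0 to 1 when single libraries were left out. Of the other pathway genes, with a log2 change of at least 1, 57 instead of 114 rose and 1 instead of 7 fell in CKO, and 51 instead of 113 rose and 1 instead of 8 fell in WT. The stricter filter gave 12 that fell in CKO. Between genotypes their counts ranged from 0 to 1 lower at 48 h and 0 to 1 higher at 0 h (1 with no filter, a fit of the groups compared, thinning or without WT replicate 1 for the first, and with library totals, the stricter filter, a fit of the groups compared or thinning for the second). At a log2 change of at least 1 none was lower at 0 h or differed in response, and the 1 that differed in response ranged from 0 to 1 without single libraries.

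Changes near 0 turned sign. Ubtf in WT was at 0.027 with no filter, 0.060 without WT replicate 1 of both times and between -0.061 and 0.050 without single libraries. Ddx47 was at -0.032 in CKO and -0.055 in WT with the stricter filter. Las1l was at 0.0056 in CKO and 0.039 in WT with no filter, and without single libraries between -0.053 and 0.025 in CKO and between -0.057 and 0.030 in WT. The difference of the Senp3 responses was -0.00702 with no filter and between -0.028 and 0.048 without single libraries. The counts over all genes, and with them the shares set beside the members, moved more. At 48 h those lower in CKO numbered 653 with no filter against 349, and 141 without CKO replicate 3, 183 without CKO replicate 1 and 223 without WT replicate 3. Those higher numbered 204 without CKO replicate 3 and 236 without CKO replicate 1, against 375. At 0 h those lower numbered 287 without CKO replicate 3, 316 without CKO replicate 1 and 347 without WT replicate 2, against 538, and those higher 402 without CKO replicate 3 and 434 without WT replicate 3, against 654. For a larger response in CKO the 97 became 223 with no filter, 203 in DESeq2 and 175 with a replicate block within genotype. The count became 43 without CKO replicate 3 at 48 h. It was 58 to 64 without CKO replicate 1 at either time or CKO replicate 3 at 0 h, and also without WT replicate 2 at either time or WT replicate 3 at 48 h. For a smaller response the count of 123 became 353 with no filter, 218 in DESeq2, 72 and 77 without CKO replicate 3 at 48 h and at 0 h, 207 without WT replicate 1 at 48 h and 227 without it at both times. A log2 change of at least 1 left 160 higher and 78 lower at 48 h, 218 higher and 122 lower at 0 h, and 42 larger and 40 smaller responses.

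Libraries with the same replicate number deviated together weakly within a genotype. The correlation of their deviations ran between 0.042 and 0.162 for 48 h and 0 h, over 0.1 in 2 of 6 pairs. For 48 h and 0 h libraries of a genotype with unlike numbers it ran between -0.155 and 0.022. Between CKO and WT libraries of the same number and time it reached 0.095 at most. Whether the numbers mark a pairing is not stated in the sources used here, and the reported fit used none. The replicate block shared by the genotypes changed no other count of members. With a block within each genotype, no member passed the test of the difference in response. The precision that 3 libraries a group gave is limited: between genotypes the SE of a member's difference was between 0.051 and 0.107. The cause of these changes was not tested.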
